A study of Mus musculus with 9 samples.

Results

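The genes described here encode the granule proteins of eosinophils, with Siglecf, a surface lectin of the same cells. They were chosen by symbol in the array annotation, and of 8 listed genes (Epx, Prg2, Prg3, Ear1, Ear2, Ear6, Ear10 and Siglecf) 6 had a transcript cluster, out of 21072 clusters in all. Ear1 and Ear2 had no cluster under those symbols and were not analysed here. Siglecf was listed in the annotation under the older symbol Siglec5 and was matched by its gene identifier. The annotation gave the Ear6 cluster 1 symbol and 2 gene identifiers. A transcript cluster is a set of probes that the array design groups together, usually for 1 gene, and its signal is given as a log2 value, so a difference of 1 is a doubling.

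Expression was measured on 9 arrays in 3 groups of 3. In the first group the cells received a retrovirus with the cDNA of GATA2 R396Q, a missense form of this zinc finger transcription factor. In the next they received GATA2 wild type, and in the control group the empty vector MIE, which carries EGFP alone. All 3 groups shared the rest of the design: bone marrow of C57BL/6 females aged 8 weeks, given 5-fluorouracil at 150 mg/kg 6 days before harvest, was sorted for Lin-Sca+Kit+ cells, transduced, and sorted again for GFP after 72 h of culture. The labels call the cells HSC, give the tissue as blood and do not name the species of the cDNA. The cells kept their own Gata2, so each GATA2 group carried the transduced form on top of it. Kit, the receptor used in the sort, had 10.58, 10.32 and 10.50 log2 units with R396Q, 9.50, 9.42 and 9.46 with wild type, and 12.22, 12.23 and 12.38 with the empty vector. Gata2 itself had 10.65, 10.72 and 10.53 with R396Q, 11.50, 11.24 and 10.94 with wild type, and 9.87, 9.67 and 9.65 with the empty vector. Both transduced groups stood above the control on all arrays, and R396Q stood below wild type. R396Q minus wild type was -0.85, -0.52 and -0.41 log2 units for Gata2 (mean -0.59, limma adjusted p = 0.0633, and 0.0222 with the replicate number as a block). The part of this difference in the values of the members was not tested.

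Array medians lay between 6.06 and 6.19 log2 units. Each group holds a replicate 1, 2 and 3. Deviations from the group means went together in arrays with the same number, and the number took up 21.1% to 50.1% of the variance of the members over the 9 arrays. Differences are therefore also given between arrays of the same number. The labels do not state that replicates were separate cultures or mice, so p-values cover only the spread between these arrays, which may be technical. In these bulk samples, fewer cells of a type and less RNA per cell cannot be told apart.

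Eosinophils arise from myeloid progenitors in the marrow and fill their granules with a small set of very abundant cationic proteins. Epx encodes eosinophil peroxidase, a heme enzyme of the granule matrix. Prg2 encodes major basic protein, which forms the crystalline core of the granule, and Prg3 encodes its homolog. The Ear genes encode ribonucleases of the family that in humans holds eosinophil cationic protein and eosinophil-derived neurotoxin. GATA factors and C/EBP factors are the best known transcription factors of the eosinophil lineage.

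The upstream sequences of 4 measured members are shown because Epx and Prg3 had unlike patterns across the groups, while Ear6 and Ear10 are members of a family of near copies. They are the 250 bases before 1 transcription start of each gene in RefSeq (build GRCm38.p6), written 5′ to 3′ on the strand of the gene. For Prg3 that start lies inside the full RefSeq span of the gene, so the last bases of its window belong to the span. The windows are chr11:87875537-87875786 (minus strand) for Epx, chr2:84987965-84988214 (plus strand) for Prg3, chr14:51853518-51853767 (plus strand) for Ear6 and chr14:43923597-43923846 (minus strand) for Ear10. Capitals in Epx and Prg3 mark a GATA word on either strand (the word AGATAA, the word TGATAA, the word AGATAG or the word TGATAG), and capitals in Ear6 and Ear10 mark TTGCNNAA on either strand, a short form of the C/EBP motif.
Epx: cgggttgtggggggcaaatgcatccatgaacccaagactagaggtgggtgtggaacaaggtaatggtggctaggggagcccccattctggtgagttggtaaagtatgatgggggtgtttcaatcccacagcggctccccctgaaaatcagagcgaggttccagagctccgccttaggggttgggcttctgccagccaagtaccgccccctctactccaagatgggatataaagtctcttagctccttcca
Prg3: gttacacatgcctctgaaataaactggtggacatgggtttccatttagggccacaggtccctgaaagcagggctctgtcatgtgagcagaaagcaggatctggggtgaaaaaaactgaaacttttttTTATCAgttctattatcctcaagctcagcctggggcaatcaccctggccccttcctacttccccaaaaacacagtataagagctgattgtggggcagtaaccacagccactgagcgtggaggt
Ear6: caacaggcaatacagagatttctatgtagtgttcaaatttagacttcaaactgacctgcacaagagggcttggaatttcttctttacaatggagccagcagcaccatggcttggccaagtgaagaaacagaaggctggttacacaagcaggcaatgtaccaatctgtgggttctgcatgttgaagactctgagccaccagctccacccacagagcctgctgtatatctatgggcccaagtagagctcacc
Ear10: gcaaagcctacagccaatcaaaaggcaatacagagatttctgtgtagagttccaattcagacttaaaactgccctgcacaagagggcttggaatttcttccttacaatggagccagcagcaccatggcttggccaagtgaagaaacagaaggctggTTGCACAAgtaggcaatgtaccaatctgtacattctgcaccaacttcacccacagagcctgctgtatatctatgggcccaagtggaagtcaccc

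Of the 8 listed genes 7 had a window in the table, and Prg2 was the one without. Among those 7 windows a GATA word stood only in that of Prg3, 118 to 123 bases before the start used here and on the opposite strand, whereas 26.5% of 32851 windows of the same length held at least 1. TTGCNNAA stood in the windows of Ear1, Ear2 and Ear10 and not in those of Ear6, Epx, Prg3 and Siglecf, and 9.56% of all windows held it. None of these windows held both motifs, so no match of one could overlap a match of the other. The windows of Ear1 and Ear2 were 97.6% identical, those of Ear1 and Ear10 91.7%, and that of Ear6 was 77.3% to 79.2% identical to the other Ear windows. Epx and Prg3 were 47.6% identical, which is in the range of the other pairs from different families (42.8% to 48.2%). A match is a description of these letters and says nothing of whether a factor bound there.

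With wild type GATA2, the granule genes and Siglecf were higher than with the empty vector in every pair of arrays with the same number except Ear10 in replicate 3, by up to 217-fold. With R396Q, Epx was within 0.78 log2 units of its wild type signal in every replicate, while Prg2 was 59.3-fold to 109-fold below it and Prg3 2.76-fold to 46.4-fold. Epx and Prg2 were lowest in replicate 3 in all 3 groups. Epx was low there with both forms (6.49 with R396Q, 7.24 with wild type and 5.86 with the empty vector). That replicate therefore says little of how alike the forms are for Epx. Without the replicate block, 0 of the 6 member clusters passed limma's test at an adjusted p of 0.05 in any of the 3 comparisons. With the replicate number as a block, Prg2, Ear6 and Siglecf rose with wild type against the empty vector, and Prg2 and Siglecf fell with R396Q against wild type.

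Epx signals were 14.96, 14.80 and 6.49 log2 units in replicates 1, 2 and 3 with R396Q, 14.81, 14.02 and 7.24 with wild type, and 8.99, 6.26 and 5.86 with the empty vector. Both GATA2 groups were high in replicates 1 and 2 and low in replicate 3, and all groups overlapped. Within replicates, Epx with wild type was 56.4-fold, 217-fold and 2.60-fold above the empty vector. With R396Q it was 62.5-fold, 372-fold and 1.54-fold above it. The mean difference was 4.98 log2 units for wild type (SE 2.89, limma adjusted p = 0.378) and 5.04 for R396Q (SE 2.89, adjusted p = 0.558), and with the replicate block the adjusted p was 0.0969 and 0.173. Both missed the threshold. R396Q and wild type differed by 0.06 log2 units, with a 95% interval of -3.92 to 4.03 in the fit with the block, which spans differences of many fold in both directions.

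Prg2 signals were 11.15, 10.12 and 4.92 with R396Q, 17.04, 16.55 and 11.69 with wild type, and 12.56, 9.03 and 7.48 with the empty vector. Every wild type array stood above every R396Q array, while R396Q and the empty vector overlapped. Within replicates, Prg2 with R396Q was 59.3-fold, 86.2-fold and 109-fold below wild type. The mean difference was -6.36 log2 units, or 82.4-fold, with an adjusted p of 0.195 in limma without the block and 0.00999 with it. Against the empty vector, wild type was 22.3-fold, 183-fold and 18.5-fold higher (mean 5.40 log2 units, adjusted p = 0.221, and 0.0120 with the block). R396Q against the empty vector gave -1.41, 1.08 and -2.56 log2 units, with no common direction (mean -0.96, adjusted p = 0.929, and 0.564 with the block).

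Prg3, the neighbour of Prg2 on chromosome 2, had 8.79, 8.70 and 6.53 with R396Q, 14.33, 13.99 and 7.99 with wild type, and 9.67, 6.64 and 6.79 with the empty vector. Wild type replicates 1 and 2 stood above all other arrays, and wild type replicate 3 lay within the range of the other groups. Within replicates, R396Q was 46.4-fold, 38.9-fold and 2.76-fold below wild type. The mean difference was -4.09 log2 units (adjusted p = 0.308, and 0.104 with the block). Wild type against the empty vector gave 4.66, 7.34 and 1.20 log2 units (mean 4.40, adjusted p = 0.215, and 0.0715 with the block). None of these means passed the test. R396Q against the empty vector gave -0.88, 2.06 and -0.26 log2 units (adjusted p = 0.995).

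**Figure D1:**
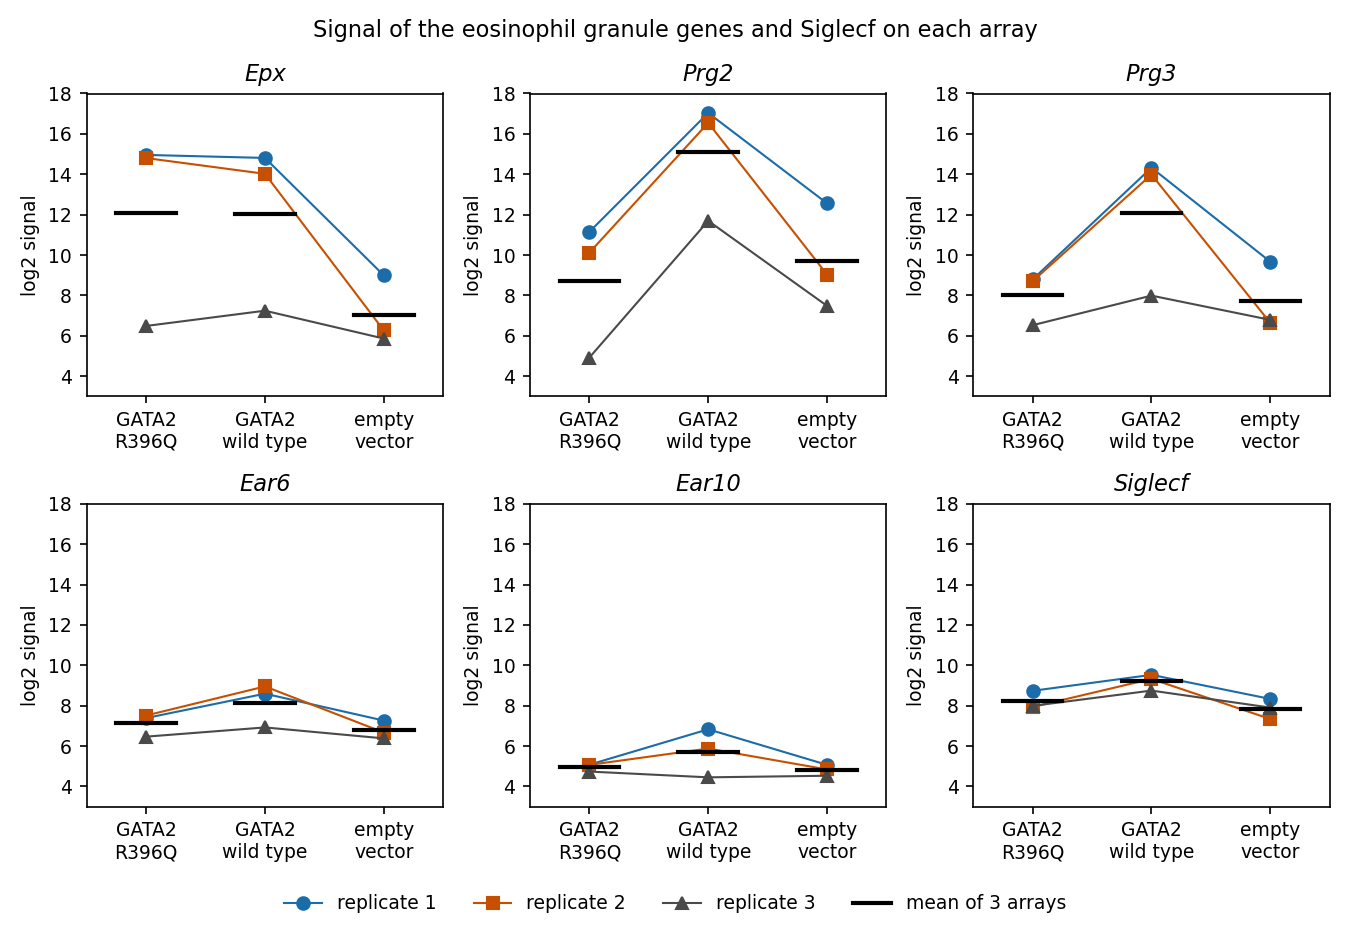
Log2 signal (y axis) of the 6 member clusters on each of the 9 arrays, with GATA2 R396Q, GATA2 wild type and empty vector from left to right. Lines join arrays with the same replicate number and black bars are means of 3 arrays. Epx is high with both GATA2 forms in replicates 1 and 2, Prg2 and Prg3 are highest with wild type in each replicate, and Epx and Prg2 are lowest in replicate 3 in each group.

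The ribonuclease clusters moved over a smaller range. Ear6 had 7.39, 7.51 and 6.47 with R396Q, 8.60, 8.95 and 6.92 with wild type, and 7.26, 6.67 and 6.38 with the empty vector. Wild type was the highest group in each replicate number. Ear6 with wild type was 2.52-fold, 4.86-fold and 1.46-fold above the empty vector (mean 1.39 log2 units, adjusted p = 0.215, and 0.0462 with the block). With R396Q it was 2.31-fold, 2.71-fold and 1.37-fold below wild type (mean -1.03, adjusted p = 0.434, and 0.117 with the block). Ear10 had 5.08, 5.07 and 4.74 with R396Q, 6.83, 5.88 and 4.45 with wild type, and 5.07, 4.84 and 4.53 with the empty vector. Only wild type replicates 1 and 2 stood apart from the other Ear10 values. The mean difference of wild type from the empty vector was 0.91 log2 units (adjusted p = 0.395, and 0.217 with the block). Ear10 held 8 distinct values on 9 arrays. Because the Ear genes are near copies of each other, the signal of an Ear cluster may include RNA of other family members, and this was not tested.

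Siglecf, which binds sialic acid on the eosinophil surface, had 8.74, 7.93 and 7.99 with R396Q, 9.53, 9.33 and 8.75 with wild type, and 8.33, 7.34 and 7.91 with the empty vector. Every wild type array stood above every array of the other groups, and R396Q overlapped with the empty vector. Within replicates, wild type was 2.29-fold, 3.97-fold and 1.79-fold above the empty vector (mean 1.34 log2 units, SE 0.34, adjusted p = 0.0593, and 0.0165 with the block). R396Q was 1.73-fold, 2.62-fold and 1.69-fold below wild type (mean -0.98, SE 0.34, adjusted p = 0.189, and 0.0485 with the block). R396Q against the empty vector gave 0.40, 0.60 and 0.09 log2 units (adjusted p = 0.747). Siglecf had the smallest spread of the 6 clusters within groups.

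Counted together for wild type against the empty vector, 0 of 6 member clusters passed in limma without the block, where 8.99% of all clusters did. At an unadjusted p under 0.05 there were 4 of 6, against 22.1% of all clusters. With the block 3 of 6 rose and 0 fell, against 8.00% of all clusters that rose. The median change of the 6 was 2.89 log2 units, and that of all clusters -0.01. In 5 of 6 the wild type array was the higher one in all 3 replicates, against 20.0% of all clusters, and Ear10 was the exception with -0.08 in replicate 3. The groups did not overlap for 1 of 6, Siglecf, against 10.8% of all clusters with wild type above. Without wild type replicate 3 and without the block, Prg3, Ear6 and Ear10 passed (adjusted p 0.0289, 0.0412 and 0.0426). Without replicate 3 in every group and with the block, which leaves 6 arrays, 0 of 6 passed (adjusted p 0.0702 to 0.136, change of Epx 6.79 log2 units). With the block and only the 2 groups compared, 0 of 6 passed (Prg2 0.0738, Siglecf 0.106 and Ear6 0.178).

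For R396Q against the empty vector, 0 of 6 passed without the block, where 1.23% of all clusters did, and 0 of 6 passed with it, where 3.00% did. At an unadjusted p under 0.05 there were 0 of 6 without the block (12.1% of all clusters). With the block Epx had an unadjusted p of 0.0223 in limma, and an adjusted p of 0.173. The median change was 0.33 log2 units, against -0.01 for all clusters. The R396Q array was the higher one in all 3 replicates for 4 of 6, namely Epx, Ear6, Ear10 and Siglecf, against 17.0% of all clusters. Some of these differences were very small. In replicates 1, 2 and 3, Ear10 gave 0.01, 0.23 and 0.21 log2 units and Ear6 gave 0.13, 0.84 and 0.09. Siglecf gave 0.40, 0.60 and 0.09.

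For R396Q against wild type, 0 of 6 passed without the block, where 5.75% of all clusters did, and 2 of 6 had an unadjusted p under 0.05, against 17.7%. With the block 2 of 6 fell and 0 rose, against 5.95% of all clusters that fell. The median change was -1.01 log2 units, against 0.00 for all clusters. R396Q was lower in all 3 replicates for 4 of 6, namely Prg2, Prg3, Ear6 and Siglecf, against 19.4% of all clusters, and the groups did not overlap for 2 of 6, Prg2 and Siglecf, against 9.59%. Without replicate 3 in every group and with the block 0 of 6 passed, with Prg2 at -6.16 log2 units (adjusted p = 0.115), and without wild type replicate 3 and without the block Prg3 passed (-6.15, adjusted p = 0.0444). With the block and only the 2 groups compared, Prg2 passed (adjusted p = 0.0268) and Siglecf did not (0.0947). The 3 comparisons share arrays in pairs, so their counts are not independent of each other.

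**Figure D2:**
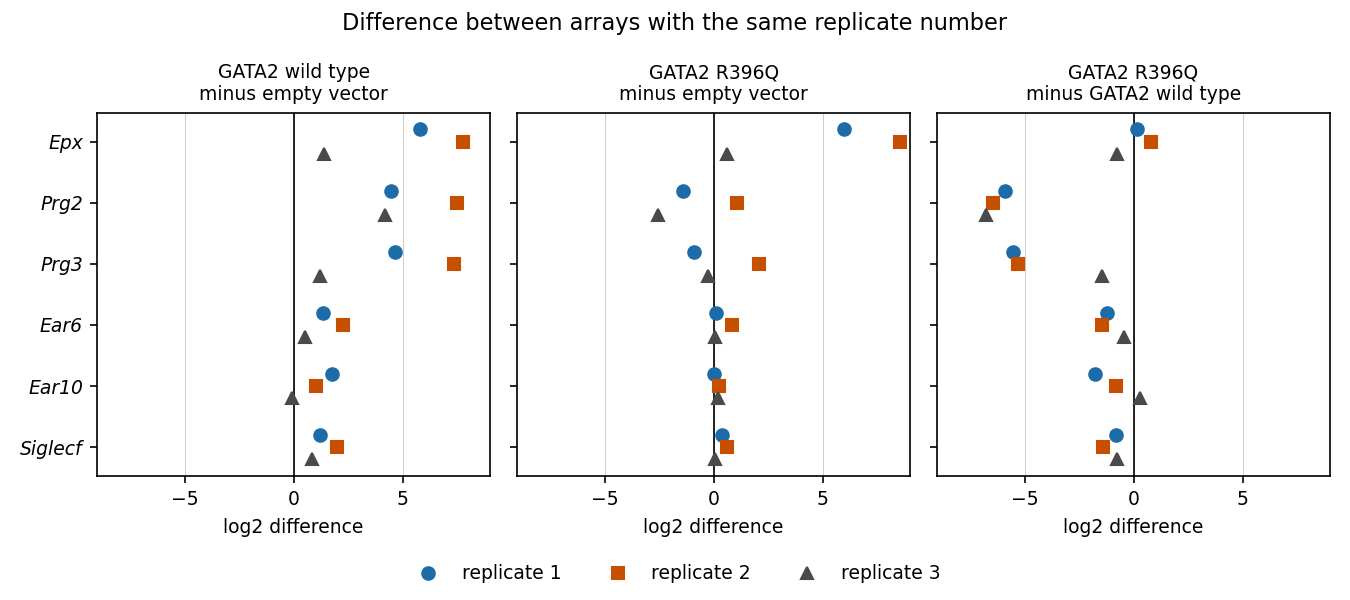
Difference in log2 signal (x axis) between arrays with the same replicate number, for the 6 member clusters (rows) in the 3 comparisons (panels); each point is 1 pair of arrays. Epx lies near 0 for R396Q minus wild type (0.15, 0.78 and -0.76), whereas Prg2 lies between -6.77 and -5.89 there.

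Among the members, the changes of Epx and Prg2 between the 2 forms of GATA2 lay furthest apart. This pair was set side by side after its values were seen. The change of Epx minus the change of Prg2, R396Q against wild type, was 6.04, 7.21 and 6.02 log2 units in replicates 1, 2 and 3 (mean 6.42, SD 0.68, n = 3). It was positive in 3 of 3 replicates. An exact permutation test of the 6 arrays gave a two-sided p of 0.10, the smallest that 3 arrays against 3 allow. An exact sign-flip test of the 3 replicates gave 0.25, likewise the smallest possible. Because the pair was chosen for this gap in the same arrays, neither test nor the common sign can support it. For R396Q against the empty vector the same quantity was 7.38, 7.45 and 3.19, and for wild type against the empty vector 1.34, 0.24 and -2.83, which has no common sign. For Epx and Prg3, R396Q against wild type, it was 5.69, 6.06 and 0.71, so in replicate 3 the gap was small.

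Replicate 3 had the lowest mean over the 3 groups for each member except Siglecf (8.20 in replicate 2 and 8.22 in replicate 3). With the empty vector alone, replicate 1 stood apart for Epx (8.99, against 6.26 and 5.86) and Prg3 (9.67, against 6.64 and 6.79). Averaged over the 3 groups, replicate 3 minus the mean of replicates 1 and 2 was -5.78 log2 units for Epx, -4.71 for Prg2 and -3.25 for Prg3. It was -1.14 for Ear6, -0.89 for Ear10 and -0.32 for Siglecf. Of the 21072 clusters 1 had a lower value than Epx, and 6.86% had a lower one than Siglecf. Replicate 3 was the lowest array of its group in all 3 groups for 4 of 6 members (Epx, Prg2, Ear6 and Ear10), against 8.45% of all clusters. By the moderated F-test in limma, 1 of 6 differed between replicate numbers (Prg2, adjusted p = 0.0403), where 7.00% of all clusters did. Epx had an adjusted p of 0.114 in that test although its standard deviation within groups, 3.82, was the highest of all 21072 clusters. That of Prg2 was 2.98 and that of Prg3 2.40, against a median of 0.138 over all clusters.

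Neutrophil markers, which include granule and other genes, were mostly low in the same arrays. Of 21 measured neutrophil markers 15 had replicate 3 lowest in all 3 groups, although 4 of 21 differed between numbers by the F-test in limma. Their median difference of replicate 3 from replicates 1 and 2 was -1.33 log2 units. The mean signal of the list in replicates 1, 2 and 3 was 11.7, 11.0 and 9.25 with R396Q, 9.07, 8.45 and 7.26 with wild type, and 12.3, 11.7 and 9.82 with the empty vector. Cebpe, a transcription factor needed for the late granule genes of neutrophils and eosinophils, had 11.98, 10.78 and 8.92 with R396Q, 8.44, 7.54 and 5.81 with wild type, and 10.54, 9.36 and 8.39 with the empty vector, and it differed between numbers (adjusted p = 0.0133). Wild type had the lowest mean of the neutrophil list in each replicate, where it had the highest signal of Prg2. Basophil and mast cell markers had a median difference of -0.02 in replicate 3, and 0 of 19 had it lowest in all groups (0 of 19 also differed between numbers by the F-test in limma, and 4 at an unadjusted p under 0.05). The part of any of these in the values of the members was not tested.

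**Figure D3:**
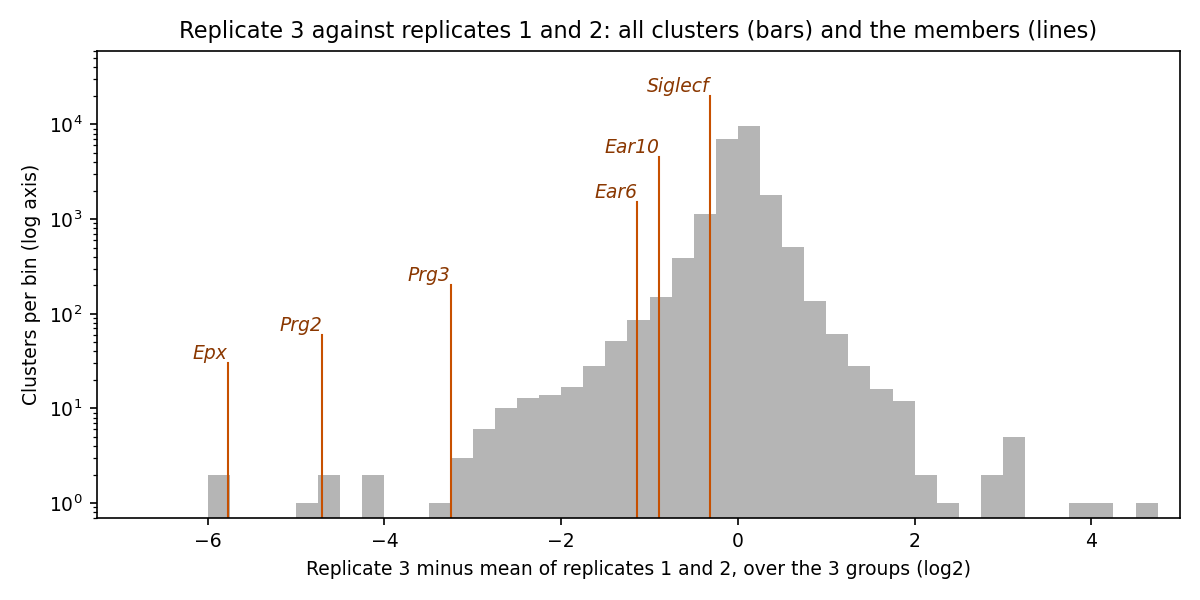
Replicate 3 minus the mean of replicates 1 and 2, averaged over the 3 groups (x axis, log2), for all 21072 clusters as bars (y axis, clusters per bin, log scale) and for the members as lines. Epx, Prg2 and Prg3 lie at the far low end, at -5.78, -4.71 and -3.25, and Siglecf at -0.32.

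Other genes of the eosinophil lineage were read from lists, and their calls are those without the block. Of all clusters 4.64% rose and 4.35% fell with wild type against the empty vector. With R396Q 0.660% rose and 0.569% fell against the empty vector, and 2.67% rose and 3.08% fell against wild type. With the block 3667, 632 and 2750 of the 21072 clusters passed in these 3 comparisons, and 1685, 349 and 1497 of those rose. The block counts of all lists are to be read beside these. Among receptors and surface proteins 1 of 20 measured genes rose and 4 fell with wild type against the empty vector, 0 rose and 2 fell with R396Q against the empty vector, and 0 rose and 2 fell with R396Q against wild type, with medians of 0.07, -0.07 and 0.01 log2 units. With the block 3 rose and 6 fell, 0 rose and 4 fell, and 1 rose and 2 fell in these comparisons. Without the block, the 1 that rose with wild type against the empty vector was Itgb7, a chain of the gut-homing integrin (mean change 1.64, adjusted p = 0.0122). Csf2ra, the GM-CSF receptor alpha chain, fell in both transduced groups (by 1.04 log2 units with R396Q, adjusted p = 0.0245, and by 1.48 with wild type, adjusted p = 0.00178). Il5ra, the interleukin-5 receptor alpha chain that defines eosinophil progenitors, had 5.44, 4.65 and 4.38 with R396Q, 5.00, 4.74 and 4.49 with wild type, and 4.79, 4.78 and 4.46 with the empty vector. Ccr3, the eotaxin receptor, had 4.22, 4.03 and 4.10 with R396Q, 5.12, 4.34 and 4.39 with wild type, and 4.29, 4.29 and 3.96 with the empty vector. Neither receptor passed the test in any comparison, and both stayed below the array medians on all 9 arrays.

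Of 23 transcription factors of the lineage 8 rose and 3 fell with wild type against the empty vector, 4 rose and 0 fell with R396Q against the empty vector, and 1 rose and 4 fell with R396Q against wild type (medians 0.11, 0.10 and -0.07). With the block 3 rose and 6 fell in the last of these. Gata1, which the eosinophil lineage needs in mice, had 5.55, 5.46 and 5.41 with R396Q, 6.73, 6.29 and 6.75 with wild type, and 5.75, 5.55 and 5.78 with the empty vector. It rose with wild type against the empty vector (0.90, adjusted p = 0.00774) and fell with R396Q against wild type (-1.11, adjusted p = 0.00473). Zfpm1, the GATA cofactor FOG1, rose with wild type by 2.79 (adjusted p = 0.000802) and was lower with R396Q than with wild type by 2.30 (change -2.30, adjusted p = 0.00244). Id2, an inhibitor of helix-loop-helix factors, changed in the same directions (2.37, adjusted p = 0.0137, and -2.58, adjusted p = 0.0132). Other factors went differently. Ets1 rose with wild type by 1.26 (adjusted p = 0.0259) and with R396Q by 2.39 (adjusted p = 0.0105). R396Q stood 1.13 above wild type for Ets1 (adjusted p = 0.0506). Cebpd fell with wild type (-1.39, adjusted p = 0.00191) and was higher with R396Q than with wild type (0.75, adjusted p = 0.0257). Cebpa did not pass in any comparison (adjusted p 0.289 to 0.821). Cebpe passed only with the block, at -2.17 with wild type against the empty vector (adjusted p = 0.273, and 0.00389 with the block) and 3.30 with R396Q against wild type (0.135, and 0.00223 with the block).

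Among 16 other genes used as eosinophil markers, 7 rose and 1 fell with wild type against the empty vector, 1 rose and 0 fell with R396Q against the empty vector, and 1 rose and 4 fell with R396Q against wild type (medians 0.65, 0.20 and -0.65). With the block 2 rose in the second of these and 7 fell in the last. Alox15, a lipoxygenase of eosinophils, had 11.10, 9.95 and 9.20 with R396Q, 12.37, 11.20 and 10.002 with wild type, and 6.53, 5.63 and 5.94 with the empty vector. Both transduced groups stood clear of the control in every replicate. It rose with wild type by 5.16 log2 units (adjusted p = 0.00609), and with R396Q its change was 4.05 (adjusted p = 0.0511, and 0.0148 with the block). R396Q and wild type differed by -1.11 (adjusted p = 0.505). Ltc4s, a called gene of the same list, had another pattern, with low signals of 4.96, 4.85 and 4.89 with R396Q. It was unchanged with wild type (-0.01, adjusted p = 0.991). With R396Q it was higher than with the empty vector (0.60, adjusted p = 0.0157) and than with wild type (0.61, adjusted p = 0.00492). Il4 and Il13, cytokines that basophils and mast cells also make, rose with wild type by 2.98 (adjusted p = 0.00193) and 2.42 (adjusted p = 0.000657), and fell with R396Q against wild type by 2.26 (adjusted p = 0.00734) and 2.14 (adjusted p = 0.00165).

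**Figure D4:**
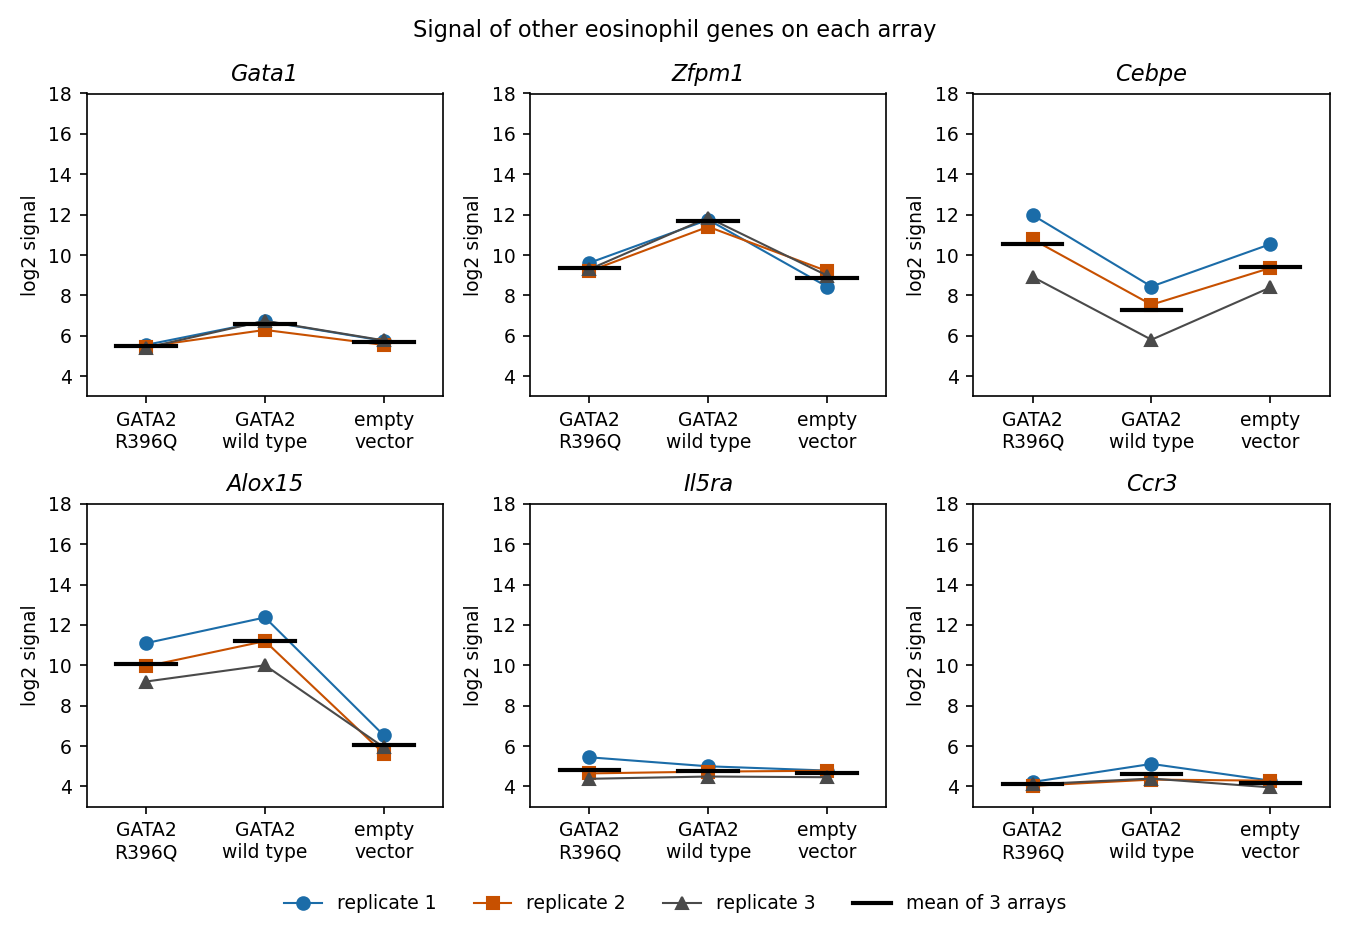
Log2 signal (y axis) of Gata1, Zfpm1, Cebpe, Alox15, Il5ra and Ccr3 on each array, drawn as for the members: GATA2 R396Q, GATA2 wild type and empty vector from left to right, lines joining replicates with the same number, black bars for means. Alox15 is above the control with both GATA2 forms, Cebpe is lowest with wild type, and Il5ra and Ccr3 stay between 3.96 and 5.44 on all arrays.

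Of the 4 measured clusters in the list of other eosinophil-associated ribonuclease genes 0 passed in limma in any comparison, with or without the block. None had an unadjusted p under 0.05. Ear-ps2, a pseudogene of the family, had 5.86, 5.77 and 6.07 with R396Q, 8.83, 7.94 and 5.12 with wild type, and 5.89, 5.77 and 5.80 with the empty vector, so wild type replicates 1 and 2 were again the high arrays. Of 11 genes of the wider ribonuclease A family 1 rose with wild type against the empty vector and 1 fell with R396Q against wild type, both times Rnase6 (1.60, adjusted p = 0.0432, and -1.84, adjusted p = 0.0354). With the block 2 rose with wild type. With R396Q against the empty vector 0 of 11 passed in limma and 0 had an unadjusted p under 0.05, with or without the block.

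Markers of other cell types differed by list: some moved in the direction of the members, some the other way and some hardly at all. With wild type against the empty vector, 10 of 19 basophil and mast cell markers rose and 0 fell (median 2.00), 12 of 16 erythroid markers rose and 0 fell (2.93), 11 of 15 megakaryocyte markers rose and 0 fell (2.35), 1 of 21 neutrophil markers rose and 8 fell (-3.42), 0 of 19 monocyte and macrophage markers rose and 11 fell (-2.70), 4 of 12 stem and progenitor markers rose and 4 fell (-0.26), and 0 of 15 lymphoid markers passed in limma (-0.03, 0 at an unadjusted p under 0.05 and 0 with the block). With R396Q against wild type, 7 of the basophil and mast cell markers fell and 0 rose (-0.48), 11 of the erythroid markers fell and 0 rose (-2.96), 8 of the megakaryocyte markers fell and 0 rose (-1.57), 5 of the neutrophil markers rose and 0 fell (2.62), 2 of the monocyte and macrophage markers rose and 1 fell (0.22), 3 of the stem and progenitor markers rose and 3 fell (0.20), and 0 of the lymphoid markers passed in limma (0.05, 2 at an unadjusted p under 0.05, and with the block 1 rose and 1 fell). With R396Q against the empty vector, 7 of the monocyte and macrophage markers fell and 0 rose (-1.54), 2 of the stem and progenitor markers rose and 1 fell (-0.06), 1 neutrophil marker rose and 1 fell (-0.53), 1 basophil and mast cell marker rose (0.66), and 0 of the erythroid, megakaryocyte and lymphoid markers passed in limma (0, 4 and 0 at an unadjusted p under 0.05). With the block the counts moved most for neutrophil markers, of which 15 fell with wild type against the empty vector and 12 rose with R396Q against wild type. With R396Q against the empty vector 4 basophil and mast cell and 3 megakaryocyte markers rose, and 10 monocyte and macrophage and 2 neutrophil markers fell. The block also raised the calls over all 21072 clusters. They went from 1894 to 3667 with wild type against the empty vector. With R396Q they went from 1211 to 2750 against wild type and from 259 to 632 against the empty vector. The basophil and mast cell list had mean signals of 9.85, 9.73 and 9.50 with R396Q, 11.4, 10.3 and 10.9 with wild type, and 9.36, 8.29 and 9.30 with the empty vector, and the part of such cells in the values of the members was not tested.

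For each member the clusters with the most similar pattern were named by the root mean square difference between log2 profiles, each centred on its own mean over the 9 arrays. Prg2 and Prg3 were close to each other (1.48), and Rnase12, a ribonuclease A family gene, was nearest to Prg3 (1.46) and to Epx (2.34). Rnase12 had 11.33, 9.99 and 5.88 with R396Q, 12.59, 11.96 and 9.99 with wild type, and 9.79, 6.94 and 7.11 with the empty vector, so replicate 3 was its lowest array with R396Q and with wild type but not with the empty vector. The next nearest to Epx was Alox15 (2.56), and the next nearest to Prg2 was Ppbp (1.67), a chemokine of platelets. Epx and Prg2 were 3.12 apart, so Epx was less like Prg2 than Prg3 was. Ear6 was nearest to Atp1b1 (0.33), Ear10 to Snord123 (0.27) and Siglecf to Ckap2l (0.26). Ear-ps9, an Ear symbol that the list of other ribonuclease genes left out, was among the 3 nearest to Ear10 (0.30). It had 6.21, 5.60 and 6.16 with R396Q, 8.23, 7.04 and 5.75 with wild type, and 6.18, 6.21 and 6.19 with the empty vector. Small distances of this kind also follow from a small spread, which for Ear10 and Siglecf was 0.75 and 0.72 over all arrays, against 4.15 for Epx.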

How the data were processed

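Signals are the authors' deposited log2 values, 1 for each cluster on each array. The submitters' processing notes name RMA and Affymetrix Expression Console, and the version and genome build are not given in the sources used here. RMA corrects background, normalizes between arrays and summarises probes. The labels name Mouse Exon 1.0 ST arrays. All 9 columns were used. Of 21072 clusters 18992 carried a single symbol, 1390 more than 1 and 690 no symbol, and 418 of 18236 symbols matched by gene identifier were updated from RefSeq (GRCm38.p6).

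Values were tested with limma 3.58.1 in R 4.3.3 (lmFit and eBayes over all 9 arrays, 1 mean per group, two-sided, Benjamini-Hochberg over all 21072 clusters in each comparison, threshold 0.05, 6 residual and 0.956 prior degrees of freedom), with no filter on dim clusters. The script was tested on simulated data. A fit with the replicate number as a block is given beside it. Arrays with the same number deviated together from their group means (correlation 0.451 to 0.693 in 9 pairs, against -0.537 to -0.0900 in 18 pairs with different numbers). Deviations cancel out within each group, so the negative values follow in part from the positive ones and are no separate support. From the positive values the numbers were taken to pair the arrays, although the labels do not say what such arrays share. A moderated F-test with group and number as terms tested the number. With 3 arrays in a group, their number limits the precision.

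The members and the gene lists were chosen with earlier results of these data known. All members are named. Of each list the counts are given with values for up to 6 called genes of smallest F-test p, and where fewer than 2 were called, up to 2 genes as values; Gata2, Gata1, Zfpm1, Cebpe, Cebpa, Il5ra, Ccr3 and Id2 were named for their roles, Csf2rb had no cluster of its own, and the 3 nearest patterns per member were taken. The text prints a part of these, and Rnase12, Ppbp and Ear-ps9 come from the last rule. Upstream sequences are RefSeq's, and percent identity is from global alignment with Biopython 1.88. Permutation tests used scipy. Alternatives were the block, fits on the 2 groups compared with and without it, trend and robust options, array weights, median subtraction, quantile normalization, filters that dropped the dimmest 30% or 50%, and leaving out each array or replicate number. Leaving out replicate 3 with the block was added after the data were seen.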

Additional observations from a re-analysis of the deposited data

How the results depend on the processing

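The block is the setting that changed the members most: the pairing of arrays by replicate number gave 3 called members for wild type against the empty vector and 2 for R396Q against wild type, against 0 in each without it. On the 2 groups alone with the block, 1 (Prg2, adjusted p = 0.0268) passed for R396Q against wild type, where Siglecf did not (0.0947), and 0 passed for wild type against the empty vector (Prg2 0.0738, Siglecf 0.106, Ear6 0.178). For wild type against the empty vector 1 member (Siglecf) passed after median subtraction (adjusted p = 0.0308), after quantile normalization (0.0314) and without the dimmest 30% (0.0369) or 50% (0.0248) of clusters. Leaving out single arrays or numbers gave 0 to 3 called members there and 0 to 1 for R396Q against wild type. The 3 were Prg3, Ear6 and Ear10 without wild type replicate 3 (adjusted p 0.0289, 0.0412 and 0.0426), and the 1 was Prg3 without the same array (0.0444). For R396Q against the empty vector 0 passed in limma under any alternative run. Members that differed between numbers were 1, and 3 without the dimmest 50% of clusters. Without replicate 3 and with the block, 0 members passed in any comparison, with Prg2 at -6.16 for R396Q against wild type (adjusted p = 0.115).

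The directions of some members turned. No member had been called in the fit without the block, so this could happen only where no call had been made. Epx for R396Q against wild type was -0.0061 after quantile normalization, and -2.33 (without wild type replicate 3) to 2.86 (without R396Q replicate 3) when arrays were left out, with -1.38, -1.30 and -0.30 without R396Q replicate 1, R396Q replicate 2 and replicate 2. Prg2 for R396Q against the empty vector was -2.17 (without R396Q replicate 1) to 0.94 (without R396Q replicate 3), with 0.47 without empty vector replicate 1. Prg3 in that comparison was -0.22 and -0.15 without empty vector replicates 2 and 3, -0.08 and -0.04 without R396Q replicates 1 and 2, and ran over all such fits from -0.57 without replicate 2 to 1.29 without empty vector replicate 1. Over all clusters, calls numbered 1894, 259 and 1211 for wild type against the empty vector, R396Q against the empty vector and R396Q against wild type, 3667, 632 and 2750 with the block, 1026, 94 and 772 on the 2 groups alone, and 1389, 0 and 1016 on these with the block. Leaving out a replicate number gave 418 to 676, 0 to 7 and 223 to 323. The share of rises for R396Q against wild type was 563 of 1211 as deposited and 830 of 1490 after median subtraction. For the other named genes that were called, each combination of gene and alternative was counted: 145 of 1160, 175 of 392 and 164 of 809 combinations were no longer past the threshold in these comparisons, and none of them turned round.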
